A study of Homo sapiens with 6 samples.

Results

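The 41 genes described here encode TGF-β and bone morphogenetic protein (BMP) ligands, their receptors, the SMAD proteins that carry their signal, and the antagonists and feedback genes that limit it. They were taken from the table of gene counts by gene symbol, and the list was drawn up with earlier results of these data known. Of the 41 symbols 40 had a row among the 34811 genes of the table, 35 passed the filter on low counts, and BMP2 was not analysed here. The libraries came from OVCAR-3, an established human ovarian carcinoma cell line, into which a pRS HuSH-29 plasmid had been stably introduced under puromycin selection. OV3/SCR cells carried a scrambled shRNA on that plasmid and served as the control, with COX-1 labelled wild-type. OV3/COX1KD cells carried an shRNA against COX-1, the cyclooxygenase encoded by PTGS1. Both were grown in RPMI-1640 with 10% FBS and harvested between 60 and 70% confluence, in 3 independent populations per condition, and the labels name no further treatment. Each condition was 1 clone, so an effect of the shRNA and a difference between clones cannot be told apart, and the spread given below is that between populations of the same clone.

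TGF-β ligands bind the type II receptor TGFBR2 and the type I receptor TGFBR1, which phosphorylate SMAD2 and SMAD3. BMP ligands act through BMPR2 and type I receptors such as BMPR1A and BMPR1B on SMAD1, SMAD5 and SMAD9. The phosphorylated SMADs join SMAD4 and bind DNA, where they switch on, among other genes, the ID genes and the inhibitory SMAD6 and SMAD7, so that the pathway induces its own brakes. In carcinoma cells TGF-β is known for promoting the epithelial to mesenchymal transition, and several BMPs are known to oppose it.

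Totals per library lay between 25291505 and 27391538 counts, and 3 counts, the smallest number taken as detectable, corresponded to 0.113 to 0.12 CPM (counts per library of equal size), a limit that covers counting error only. Counts were scaled by TMM factors (edgeR's correction for library composition), and the conditions were compared by the quasi-likelihood test of edgeR, whose p-value was adjusted over all 17309 genes tested (FDR). PTGS1, the targeted gene, had 713, 658 and 641 counts in OV3/SCR and 456, 486 and 501 in OV3/COX1KD, a log2 fold change of -0.45 (with a standard error, SE, of 0.057, edgeR FDR = 1.34e-06). OV3/COX1KD replicate 2 stood somewhat apart: the chi-square per degree of freedom between its counts and those of the other OV3/COX1KD libraries was 4.81 and 6.28, against 1.82 to 3.18 for the other pairs of 1 condition and 45.8 to 60.6 between conditions. All 11 epithelial ovarian carcinoma markers were tested. Their summed level lay between 4869 and 4916 CPM in OV3/SCR and between 6875 and 7060 CPM in OV3/COX1KD. Of the 11, 10 were higher (90.9%, against 25.8% of all genes) and PAX8 was lower. The 8 fibroblast markers summed to 11.3 to 12 CPM in OV3/SCR and 6.87 to 7.54 CPM in OV3/COX1KD, with LUM and THY1 at 3 counts or fewer in every library, and the 4 leukocyte markers with a row summed to at most 1.15 CPM. The part of these marker levels in the results below was not tested. In bulk RNA, fewer cells that express a gene and less RNA per cell cannot be told apart.

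Among the 35 members tested, 25 (71.4%) had an FDR under 0.01, compared with 47.9% of all genes tested. OV3/COX1KD had higher levels of 9 members (25.7%, against 25.8% of all genes), a share equal to the background. Lower levels were found for 16 members (45.7%, against 22.1% of all genes). With a log2 fold change beyond 0.5 as a second threshold, 4 members were higher (11.4%, against 9.87% of all genes) and 12 were lower (34.3%, against 10% of all genes). The lower counts include BAMBI and GREM1, which passed the filter only through OV3/SCR, the condition where they were high, and so had to differ to be tested. With at least 10 counts required in every library, neither was tested, and 14 members were lower, 10 of them past the second threshold. The median log2 fold change was -0.08 over the members tested and -0.0087 over all genes tested. Some of the members were named by the study from these same libraries, so the list is not independent evidence of a direction. When libraries were scaled by their totals alone, 6 members were higher and 19 lower, and the split over all genes moved from 4473 higher and 3820 lower to 3466 higher and 4978 lower. Without OV3/COX1KD replicate 2, 12 members were higher and 16 lower, the additional ones being TGFB1 (log2 fold change 0.29), SKI (0.17) and SMAD5 (0.13).

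**Figure D1:**
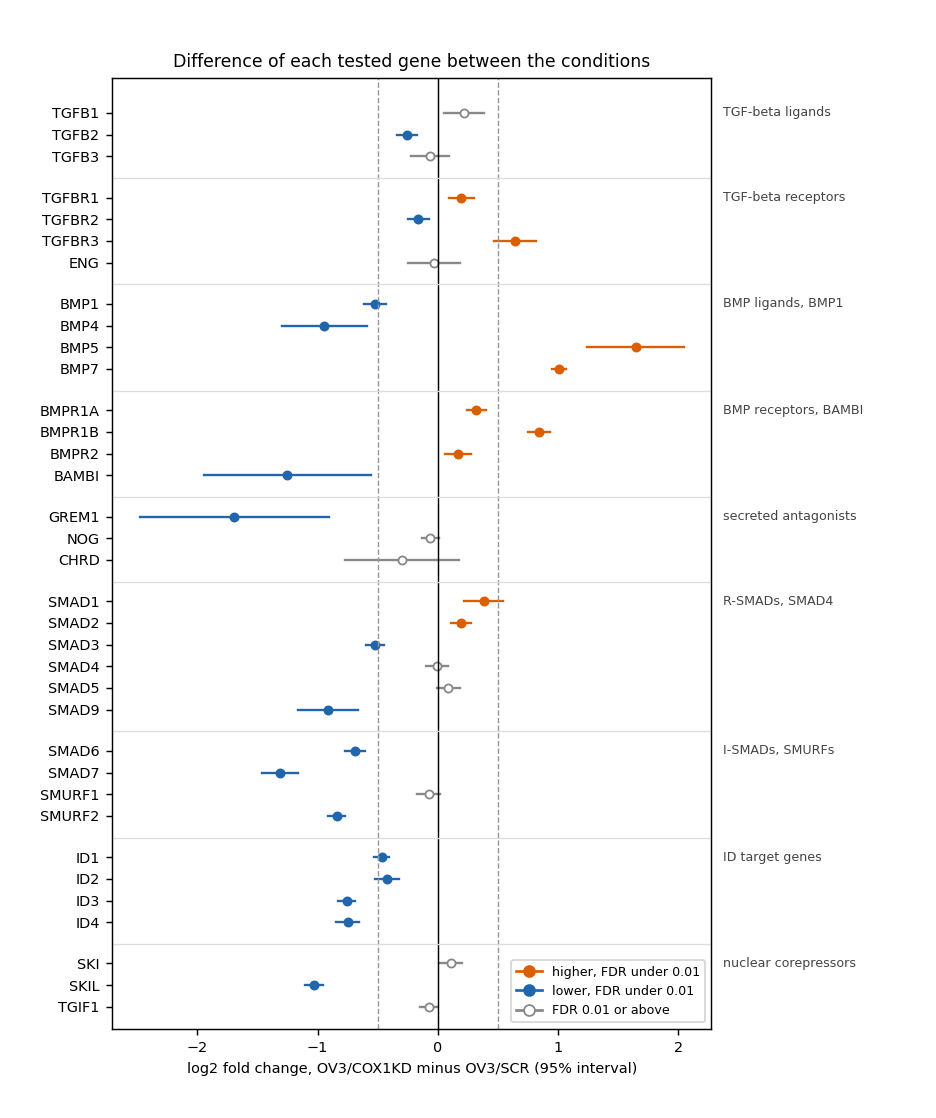
Log2 fold change of each of the 35 tested genes, OV3/COX1KD minus OV3/SCR, with its 95% interval from the edgeR fit (n = 3 libraries per condition). Filled orange and blue points have an FDR under 0.01, open points do not, and dashed lines mark 0.5 in either direction. The inhibitory SMADs, SMURF2, the ID genes and SKIL lie left of 0, while BMP5, BMP7 and BMPR1B lie to its right.

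The sequences around the start sites of 5 feedback and target genes that were lower in OV3/COX1KD (SMAD6, SMAD7, ID1, ID3 and SKIL) are given here because SMAD complexes are known to act on all of these genes. Each runs from 250 bases before to 50 bases after the start, 5′ to 3′ on the gene's strand, and comes from RefSeq on GRCh38.p14: SMAD6 at chr15:66701986-66702285 on the plus strand, SMAD7 at chr18:48950916-48951215 on the minus strand, ID1 at chr20:31605039-31605338 on the plus strand, ID3 at chr1:23559452-23559751 on the minus strand and SKIL at chr3:170357465-170357764 on the plus strand. Capitals mark matches on either strand to GTCTAGAC, the palindromic SMAD binding element, to the GC-rich SMAD element GGCGCC, and to a related GC-rich element, GGAGCC, which is read as GGCTCC from the opposite strand. No capital run holds more than 1 motif.
SMAD6 promoter: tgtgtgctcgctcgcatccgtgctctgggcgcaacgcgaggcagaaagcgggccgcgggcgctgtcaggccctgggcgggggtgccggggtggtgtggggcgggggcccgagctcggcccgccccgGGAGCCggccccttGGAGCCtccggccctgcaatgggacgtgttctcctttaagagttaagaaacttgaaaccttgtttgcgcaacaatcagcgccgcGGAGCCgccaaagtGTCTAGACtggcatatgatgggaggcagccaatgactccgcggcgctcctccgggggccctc
SMAD7 promoter: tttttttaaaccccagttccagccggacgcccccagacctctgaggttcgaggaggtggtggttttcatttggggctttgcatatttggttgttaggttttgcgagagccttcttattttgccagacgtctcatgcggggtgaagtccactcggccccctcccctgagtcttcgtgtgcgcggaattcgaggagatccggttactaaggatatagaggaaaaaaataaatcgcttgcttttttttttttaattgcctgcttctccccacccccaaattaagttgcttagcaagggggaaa
ID1 promoter: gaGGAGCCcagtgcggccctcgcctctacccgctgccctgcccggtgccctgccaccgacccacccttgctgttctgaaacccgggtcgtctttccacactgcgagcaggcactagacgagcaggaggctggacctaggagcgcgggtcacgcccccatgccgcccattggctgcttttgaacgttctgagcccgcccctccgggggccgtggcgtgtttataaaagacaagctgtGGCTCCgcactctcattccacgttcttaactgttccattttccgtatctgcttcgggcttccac
ID3 promoter: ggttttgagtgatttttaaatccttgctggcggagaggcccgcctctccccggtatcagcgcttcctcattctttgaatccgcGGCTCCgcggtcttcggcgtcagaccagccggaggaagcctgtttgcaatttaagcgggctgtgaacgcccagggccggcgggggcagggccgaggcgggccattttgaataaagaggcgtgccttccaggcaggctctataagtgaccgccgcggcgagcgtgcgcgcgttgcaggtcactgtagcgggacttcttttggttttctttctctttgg
SKIL promoter: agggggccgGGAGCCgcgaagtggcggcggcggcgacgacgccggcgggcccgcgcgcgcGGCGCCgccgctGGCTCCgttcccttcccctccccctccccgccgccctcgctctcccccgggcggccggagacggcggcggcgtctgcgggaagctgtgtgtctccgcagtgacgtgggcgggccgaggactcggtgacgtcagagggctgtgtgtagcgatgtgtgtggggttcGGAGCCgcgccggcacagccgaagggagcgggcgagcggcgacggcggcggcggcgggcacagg

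GTCTAGAC was present in 1 of the 33 members with an entry, SMAD6, where it begins 12 bases before the start, and in 0.201% of all 27305 promoters of the same length. GGCGCC was found in 11 of the 33 members (33.3%) and in 19% of all promoters. GGAGCC was found in 17 members (51.5%) and in 35.5% of all promoters. Of the 15 lower members with an entry 9 held GGAGCC and 5 held GGCGCC, and of the 8 higher members 3 and 2 did. The SMAD7 window, whose gene had the larger fall of the inhibitory SMADs, held none of the 3 motifs. Only 1 window per gene was searched, so motifs outside it or at another start site would be missed. A match in these windows is a description of the letters and no measurement of binding.

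The TGF-β ligand genes differed little between the conditions. TGFB2, which makes up most of the ligand mRNA per length here, was lower in OV3/COX1KD, at 56.9 ± 0.952 CPM (SD, n = 3) against 68 ± 3.2 CPM in OV3/SCR (log2 fold change -0.26, SE 0.041, edgeR FDR = 2.36e-05). TGFB1, the ligand best known in carcinoma, had a log2 fold change of 0.22 with a 95% interval of 0.055 to 0.38 and did not pass the threshold (edgeR FDR = 0.0217). TGFB3 had a log2 fold change of -0.07 (95% interval -0.23 to 0.094), and its groups overlapped. Levels per length are given in RPKM (CPM per kilobase of exon). The exon length merged all annotated transcripts of a gene, used in these cells or not, so comparisons between genes are approximate. In RPKM, the 3 ligands together measured 18.1 ± 0.689 in OV3/SCR and 16.8 ± 0.385 in OV3/COX1KD (SD, n = 3). TGFB2 made up 62.1 ± 1.4% of that sum in OV3/SCR and 56.1 ± 0.411% in OV3/COX1KD. The annotated genes TGFB2-OT1 and TGFB2-AS1 cover 22.7 and 11.6% of its exon length, and reads there cannot be assigned to 1 gene with certainty.

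The TGF-β receptor genes moved in different directions. TGFBR3 (chr1:92145900-92371892 on GRCh37, minus strand), the co-receptor betaglycan that presents ligand to TGFBR2, had 184, 177 and 171 counts in OV3/SCR and 257, 267 and 289 in OV3/COX1KD. The lowest OV3/COX1KD library exceeded the highest OV3/SCR library, with levels of 10.6 ± 0.326 and 6.77 ± 0.145 CPM (SD, n = 3) and a log2 fold change of 0.64 (SE 0.083, edgeR FDR = 1.69e-06). The signalling type I receptor TGFBR1 was higher by 0.19 on the log2 scale (SE 0.05, edgeR FDR = 0.00234), and the type II receptor TGFBR2 fell by 0.16 (SE 0.041, edgeR FDR = 0.00224). Neither call was firm: TGFBR1 lost it with DESeq2 (FDR = 0.0105), with total count scaling and without either of 2 single libraries (OV3/SCR replicate 2, OV3/COX1KD replicate 1), and TGFBR2 lost it without OV3/SCR replicate 2 (FDR = 0.0128) or replicate 3 (FDR = 0.0173). ENG, the endothelial co-receptor endoglin, had a log2 fold change of -0.03 (95% interval -0.25 to 0.18) at 5.32 ± 0.0926 CPM in OV3/SCR.

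Of the BMP ligand genes analysed, BMP7 had the highest level, and this level was doubled in the knockdown clone. BMP2 was not analysed here. BMP8B, at 2.81 ± 0.541 CPM in OV3/SCR and 4.59 ± 0.67 CPM in OV3/COX1KD, is not in the sum given below. BMP7 (chr20:55743809-55841697 on GRCh37, minus strand) had 10916, 10486 and 10531 counts in OV3/SCR and 21096, 19881 and 21781 in OV3/COX1KD. The replicates were close to each other and the conditions far apart, with 406 ± 3.64 and 816 ± 22.4 CPM (SD, n = 3), a fold of 2.01 (log2 fold change 1.01, SE 0.029, edgeR FDR = 4.73e-16). Per length, BMP7 made up 98.3 ± 0.102% of the summed RPKM of BMP3 to BMP7 in OV3/SCR and 99.1 ± 0.0809% in OV3/COX1KD, so that the sum, 76.2 ± 0.672 and 152 ± 4.07 RPKM, followed BMP7. BMP5 (chr6:55618451-55740388, minus strand), a ligand of the same subgroup as BMP7, had 23, 23 and 22 counts in OV3/SCR and 60, 71 and 78 in OV3/COX1KD. Its fold of 3.13 was larger than that of BMP7 (log2 fold change 1.65, SE 0.19, edgeR FDR = 4.36e-07), at a level of 2.72 ± 0.29 CPM in OV3/COX1KD that was far below that of BMP7.

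BMP4, of the other BMP ligand subgroup and a known inducer of mesenchymal features, was lower. BMP4 (chr14:54416454-54425479 on GRCh37, minus strand) had 76, 79 and 89 counts in OV3/SCR and 35, 42 and 47 in OV3/COX1KD, with no overlap (log2 fold change -0.94, SE 0.17, edgeR FDR = 7.4e-05). An annotated non-coding gene on the opposite strand covers 16.3% of its exon length, and without strand in the counting the reads there cannot be assigned to either. BMP1 (chr8:22022653-22069839, plus strand), which is a metalloprotease that cleaves procollagen and the BMP antagonist chordin and not a growth factor of the family, had 1830, 1921 and 1833 counts in OV3/SCR and 1311, 1247 and 1247 in OV3/COX1KD. Its groups were separate, with a log2 fold change of -0.52 (SE 0.044, edgeR FDR = 4.72e-09). Scarce ligands were BMP6, with 10, 9 and 6 counts in OV3/SCR and 15, 8 and 9 in OV3/COX1KD, and BMP3, with at most 3 counts in any library. Neither passed the filter, and the BMP6 groups overlapped.

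**Figure D2:**
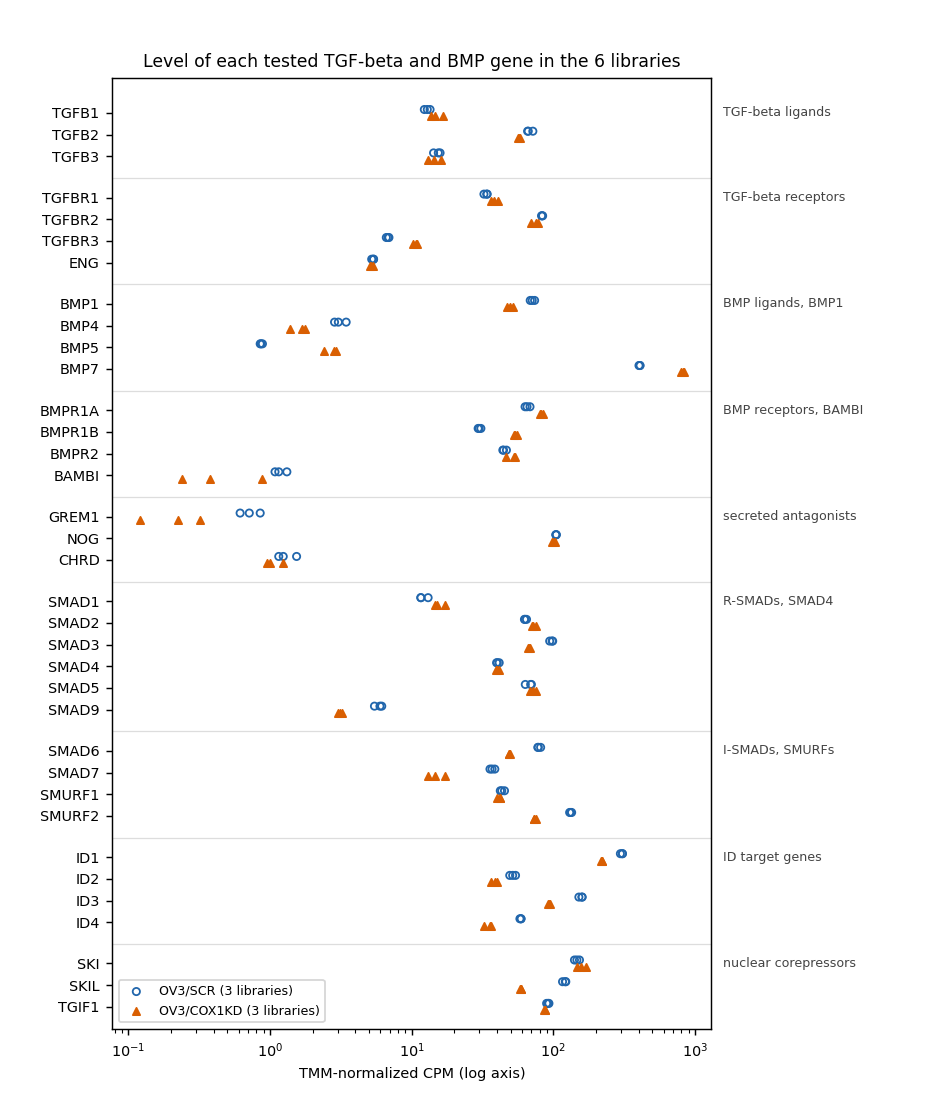
TMM-normalized CPM (log axis) of the 35 tested genes in each of the 3 OV3/SCR libraries (blue circles) and 3 OV3/COX1KD libraries (orange triangles), grouped by role. BMP7 and ID1 reach the highest levels, BMP5, BAMBI, GREM1 and CHRD stay under 3 CPM, and 24 of the 25 called genes show no overlap between the conditions.

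Among the BMP receptor genes of the list, the type I receptors BMPR1A and BMPR1B were higher in OV3/COX1KD. The calls of BMPR2 and BAMBI depended on the settings. BMPR1B (chr4:95679106-96079599 on GRCh37, plus strand), a type I receptor, had 797, 802 and 761 counts in OV3/SCR and 1386, 1312 and 1437 in OV3/COX1KD. No library of one condition came near the other, and the levels of 30 ± 0.68 and 53.8 ± 1.36 CPM (SD, n = 3) gave a log2 fold change of 0.84 (SE 0.044, edgeR FDR = 3.58e-12). BMPR1A, the more widely expressed type I receptor, increased from 65.6 ± 2.65 to 81.9 ± 1.87 CPM (log2 fold change 0.32, SE 0.039, edgeR FDR = 6.98e-07). Per length, BMPR1B made up 41.3 ± 1.51% of the sum of BMPR1A and BMPR1B in OV3/SCR and 50.2 ± 1.15% in OV3/COX1KD. That sum went from 11.1 ± 0.168 to 16.3 ± 0.122 RPKM. ACVR1, another type I receptor outside the 41 genes and outside that sum, was lower (log2 fold change -0.35, SE 0.064, edgeR FDR = 9.94e-05).

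BMPR2, the type II receptor, had a log2 fold change of 0.17 (SE 0.052, edgeR FDR = 0.00898), but its groups overlapped and the call held in only 2 of 12 alternative settings, with FDRs of up to 0.128. It was 0.0271 with DESeq2. BAMBI (chr10:28966439-28971861, plus strand), a receptor without a kinase domain that blocks TGF-β and BMP receptors and is itself a SMAD target, had 35, 30 and 28 counts in OV3/SCR and 22, 6 and 10 in OV3/COX1KD. All 3 OV3/COX1KD libraries were below the OV3/SCR libraries, replicate 1 far less so than the others (log2 fold change -1.25, SE 0.33, edgeR FDR = 0.00315), but only 1 of them reached the filter's level of 0.389 CPM, so BAMBI was tested only because OV3/SCR was high. The log2 fold change was -1.92 without OV3/COX1KD replicate 1 and -0.92 without replicate 2, and the call was lost without OV3/SCR replicate 1 (FDR = 0.0184), OV3/SCR replicate 2 (0.013) or OV3/COX1KD replicate 3 (0.0211).

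Secreted antagonists were represented mainly by NOG. NOG, which encodes noggin, a protein that binds BMP ligands outside the cell, measured 54.6 ± 0.229 RPKM in OV3/SCR and 52.4 ± 1.18 RPKM in OV3/COX1KD (SD, n = 3). Its log2 fold change of -0.06 (95% interval -0.13 to 0.0082) did not pass the threshold (edgeR FDR = 0.121), although with total count scaling it did (-0.14, FDR = 0.00124). GREM1 (chr15:33010205-33037307 on GRCh37, plus strand), the BMP antagonist gremlin, had 19, 16 and 22 counts in OV3/SCR and 8, 3 and 6 in OV3/COX1KD. The groups did not overlap (log2 fold change -1.69, SE 0.38, edgeR FDR = 0.0007), but only its OV3/SCR libraries carried it past the filter, so it had to differ to be tested. CHRD, which encodes chordin, had overlapping groups of 1.31 ± 0.203 and 1.06 ± 0.153 CPM and a 95% interval of -0.77 to 0.18 for the log2 fold change. BMPER, LEFTY1 and LEFTY2 had at most 3 counts in any library, so that a difference in them was not detectable at this depth.

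The SMADs of the TGF-β branch and those of the BMP branch each held members that differed in opposite directions. SMAD3 (chr15:67356101-67487511 on GRCh37, plus strand) had 2511, 2577 and 2533 counts in OV3/SCR and 1677, 1697 and 1818 in OV3/COX1KD. The groups were widely separated, at 97 ± 2.49 and 67.5 ± 0.819 CPM (SD, n = 3), with a log2 fold change of -0.52 (SE 0.036, edgeR FDR = 1.86e-10). SMAD2, the other SMAD of that branch, was higher by 0.19 on the log2 scale (SE 0.038, edgeR FDR = 0.000235), a call that total count scaling removed (0.12, FDR = 0.0142). Per length, SMAD3 made up 84.8 ± 0.277% of the sum of both in OV3/SCR and 77.2 ± 0.463% in OV3/COX1KD. The sum was 11.4 ± 0.267 and 8.73 ± 0.135 RPKM. These shares depend on the annotation, with a merged exon length of 36426 bases for SMAD2 and 10011 for SMAD3. In CPM, SMAD2 measured 63.4 ± 1.11 in OV3/SCR, below SMAD3, and 72.45 ± 2.39 in OV3/COX1KD, above SMAD3.

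In the BMP branch, SMAD9 (chr13:37418968-37495024 on GRCh37, minus strand) had 159, 160 and 141 counts in OV3/SCR and 76, 80 and 83 in OV3/COX1KD. Its level was thus 53.1% of the control, with no overlap (log2 fold change -0.91, SE 0.12, edgeR FDR = 1.62e-06). SMAD1 was higher, at 15.7 ± 1.39 CPM against 12.1 ± 0.837 CPM (log2 fold change 0.38, SE 0.078, edgeR FDR = 0.000318). SMAD5, the most abundant of the 3 per length with 73.5 ± 2.23% of their sum in OV3/SCR, had a log2 fold change of 0.09 (95% interval -0.0071 to 0.18) and overlapping groups. The sum of the 3 was 10.2 ± 0.25 RPKM in OV3/SCR and 10.7 ± 0.586 in OV3/COX1KD. SMAD4, the partner common to both branches, measured 40.5 ± 0.891 and 40.3 ± 0.823 CPM. Its log2 fold change had a 95% interval of -0.098 to 0.085 with TMM scaling. That interval does not cover the choice of scaling: with total count scaling the log2 fold change was -0.085 (edgeR FDR = 0.108).

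In the group of inhibitory SMADs and SMURF ligases, which act as brakes inside the cell, SMAD6, SMAD7 and SMURF2 were lower past the second threshold (10% of all genes were) and SMURF1 had no call. SMAD7 (chr18:46446223-46477335 on GRCh37, minus strand), which blocks receptors of both branches, had 1029, 930 and 954 counts in OV3/SCR and 432, 328 and 388 in OV3/COX1KD. The lowest OV3/SCR library was above the highest OV3/COX1KD library by a wide margin, and 40.3% of the control level remained (log2 fold change -1.31, SE 0.071, edgeR FDR = 5.69e-12). SMAD6 (chr15:66994574-67075187, plus strand), which acts mainly on the BMP branch, had 2167, 2039 and 2008 counts in OV3/SCR and 1233, 1244 and 1293 in OV3/COX1KD. It remained at 62% (log2 fold change -0.69, SE 0.038, edgeR FDR = 7.3e-12), with replicates that differed little. Per length both inhibitory SMADs were about equally abundant in OV3/SCR, where SMAD7 made up 50.4 ± 0.585% of their sum, and SMAD7 made up 39.7 ± 3.4% in OV3/COX1KD, where the sum was 9.52 ± 0.497 RPKM against 18.6 ± 0.575 RPKM.

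SMURF2 (chr17:62538400-62658425 on GRCh37, minus strand), a ubiquitin ligase that SMAD7 recruits to the receptors, had 3526, 3508 and 3368 counts in OV3/SCR and 1898, 1829 and 1958 in OV3/COX1KD. Its groups were separate, with a log2 fold change of -0.84 (SE 0.034, edgeR FDR = 5.72e-14). The related ligase SMURF1 had a log2 fold change of -0.08 (95% interval -0.17 to 0.018, edgeR FDR = 0.152), and total count scaling made it a call (-0.15, FDR = 0.00544). TRRAP on the opposite strand covers 11.7% of the SMURF1 exon length.

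The 4 ID genes encode inhibitors of basic helix-loop-helix factors and are classical BMP targets. All 4 were lower in OV3/COX1KD, in every library and under each of the settings tried. In the main fit 22.1% of all genes were called lower. ID3 (chr1:23884417-23885992 on GRCh37, minus strand) had 4258, 3946 and 4113 counts in OV3/SCR and 2373, 2316 and 2437 in OV3/COX1KD. Its level fell to 59.1% of the control (log2 fold change -0.76, SE 0.034, edgeR FDR = 2.75e-13). ID4 (chr6:19837601-19842428, plus strand) had 1576, 1513 and 1526 counts in OV3/SCR and 916, 812 and 956 in OV3/COX1KD, with a log2 fold change of -0.75 (SE 0.047, edgeR FDR = 4.38e-11). ID1 and ID2 fell less, by 0.47 (SE 0.029, edgeR FDR = 3.97e-11) and by 0.43 (SE 0.048, edgeR FDR = 2.65e-07) on the log2 scale. ID1 was the most abundant of the members per length, with 247 ± 4.6 RPKM in OV3/SCR and 178 ± 0.972 RPKM in OV3/COX1KD, and the 4 genes together measured 390 ± 7.92 and 267 ± 0.458 RPKM (SD, n = 3). ID2-AS1 covers 6.55% of the ID2 exon length on the opposite strand.

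SKIL was the only one of the 3 nuclear corepressor genes to pass the threshold. SKIL (chr3:170075130-170114623 on GRCh37, plus strand), which encodes SnoN, a repressor of SMAD complexes and itself a TGF-β target, had 3095, 3163 and 3163 counts in OV3/SCR and 1493, 1477 and 1555 in OV3/COX1KD. The values within each condition were close together, and 49.1% of the control level remained (log2 fold change -1.03, SE 0.036, edgeR FDR = 7.25e-15). Its relative SKI had overlapping groups and a log2 fold change of 0.11 (95% interval 0.014 to 0.2, edgeR FDR = 0.0461). SKI passed without a filter on low counts (FDR = 0.00171) and without OV3/COX1KD replicate 2 (FDR = 3.48e-06). TGIF1, a homeodomain corepressor, had a log2 fold change of -0.07 (95% interval -0.15 to -0.0028, edgeR FDR = 0.0691), and with total count scaling it was called lower (-0.15, FDR = 0.00066).

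**Figure D3:**
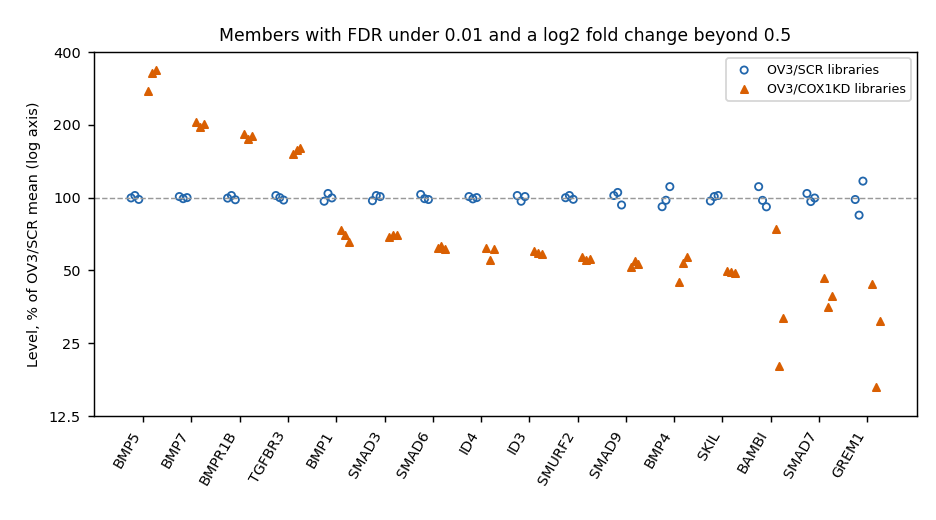
Level of the 16 members past both thresholds in each library, as a percentage of the OV3/SCR mean (log axis), with 3 OV3/SCR libraries as blue circles and 3 OV3/COX1KD libraries as orange triangles. BMP5 lies between 275 and 338% and BMP7 between 195 and 206% in OV3/COX1KD, SKIL between 48.7 and 49.5%, while BAMBI spreads from 20.2 to 73.9% and GREM1 from 16.5 to 43.8%.

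By role, the members past the second threshold fell as follows. The 4 members higher past the second threshold were 2 BMP ligands and 2 receptors or co-receptors, BMP5, BMP7, BMPR1B and TGFBR3. The 12 lower ones were SMAD3 and SMAD9, the intracellular inhibitors SMAD6, SMAD7, SMURF2 and SKIL, the targets ID3 and ID4, BMP4 and BMP1, and BAMBI and GREM1, which the filter let through only on their OV3/SCR counts. The groups did not overlap in 28 of the 35 members tested (80%), against 63.2% of all genes tested. Of the 25 members called, 24 had no overlap (96%, against 99% of all genes called), BMPR2 being the exception.

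Genes of the pathway beyond the 41 were read from wider lists of ligands, receptors, regulators and known targets. Without the members, 22 known TGF-β target genes were tested, of which 5 were higher (22.7%, against 25.8% of all genes), 14 lower (63.6%, against 22.1%) and 3 without a call. The median log2 fold change was -0.77, against -0.0087 over all genes. Past the second threshold 2 were higher (9.87% of all genes were) and 13 lower (10% of all genes were). The largest falls were those of PMEPA1, a feedback inhibitor that sequesters SMAD2 and SMAD3, of FN1, which encodes the matrix protein fibronectin, and of PTHLH, which encodes parathyroid hormone-related protein. PMEPA1 had 217, 238 and 238 counts in OV3/SCR and 30, 23 and 16 in OV3/COX1KD (log2 fold change -3.29, SE 0.16, edgeR FDR = 1.41e-12). The log2 fold change was -3.21 (SE 0.087) for FN1 and -2.22 (SE 0.089) for PTHLH. CDKN1A, the cell cycle inhibitor p21, was higher by 1.13 (SE 0.19) and LTBP2 by 0.95 (SE 0.049). The list thus held targets that moved either way. The study had itself named some genes of the list from these libraries.

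Of 13 known BMP target genes tested without the members, 3 were higher (23.1%, against 25.8% of all genes), 6 lower (46.2%, against 22.1%) and 4 without a call. Their median was -0.38 against -0.0087 over all genes. Past the second threshold 1 was higher (9.87% of all genes were) and 5 lower (10% of all genes were). DLX2 (log2 fold change -1.79, SE 0.1) and DLX3 (0.7, SE 0.063), homeobox genes of the same family, differed in opposite directions. HEY1, shared with the Notch pathway, had a log2 fold change of -1.12 (SE 0.14). ATOH8, a basic helix-loop-helix factor, had one of -1.25 (SE 0.32), but it passed the filter only through OV3/SCR, and its call held in 7 of 11 alternative settings (FDR up to 0.0254), and HAMP, without a call, also passed only in this way.

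All 11 genes tested for the storage and release of latent TGF-β were called, 3 higher (27.3%, against 25.8% of all genes), LTBP2 again among them, and 8 lower (72.7%, against 22.1%), with a median of -0.33. Fibrillin genes were on opposite sides, with FBN1 at -1.6 (SE 0.099) and FBN2 at 0.62 (SE 0.049) on the log2 scale. ITGB6, the chain of the integrin that activates latent TGF-β on epithelial cells, had a log2 fold change of -1.46 (SE 0.068), and FURIN, the convertase that cleaves the TGF-β precursors, one of -0.68 (SE 0.042). Among 4 other superfamily ligands tested, BMP8B was higher (0.7, SE 0.15), a share of 25% against 25.8% of all genes. AMH (-1.11, SE 0.074) and GDF11 (-0.57, SE 0.053) were lower, 50% against 22.1%, and 1 had no call. Of 6 other receptors and co-receptors 3 were higher (50%, against 25.8% of all genes) and 1, ACVR1, was lower (16.7%, against 22.1%). RGMA, a BMP co-receptor, was higher by 1.46 (SE 0.19).

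Of 11 other secreted modulators 3 were higher (27.3%, against 25.8% of all genes), 4 lower (36.4%, against 22.1%) and 4 without a call. CHRDL1, which encodes a BMP antagonist related to chordin, had 856, 861 and 827 counts in OV3/SCR and 2844, 2665 and 3113 in OV3/COX1KD. It was the secreted modulator with the largest rise (log2 fold change 1.79, SE 0.043, edgeR FDR = 2.9e-17), whereas the antagonist genes NBL1 (-1.35, SE 0.17) and FSTL3 (-0.52, SE 0.047) were lower. DAND5 had a log2 fold change of -1.24 (SE 0.35), but it passed the filter only through OV3/SCR, and its call held in 7 of 11 alternative settings (FDR up to 0.0337). Of 21 other intracellular regulators 13 had no call, 4 were higher and 4 lower, 38.1% called against 47.9% of all genes, and PMEPA1 is one of the lower ones. TGIF2, a corepressor related to TGIF1, was higher by 1.29 on the log2 scale (SE 0.058).

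**Figure D4:**
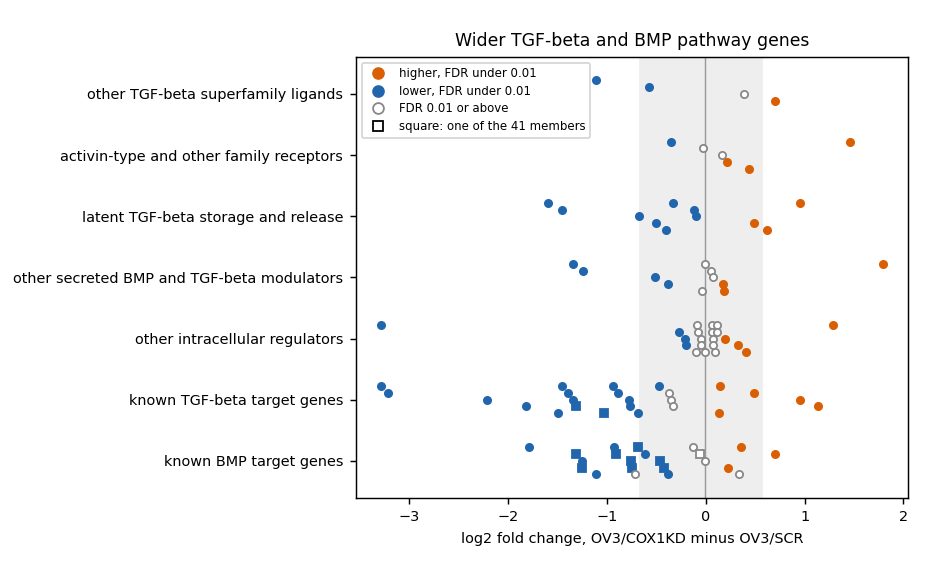
Log2 fold change, OV3/COX1KD minus OV3/SCR, of each tested gene in 7 wider pathway lists, with squares for genes that are also among the 41 and filled symbols for an FDR under 0.01. The grey band runs from the 10th to the 90th percentile of all 17309 genes tested (-0.67 to 0.57) around their median line at -0.0087, and the TGF-β target genes reach -3.29 (PMEPA1) at the left.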

How the data were processed

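RNA was sequenced from 3 OV3/SCR and 3 OV3/COX1KD populations of OVCAR-3 cells. Reads were aligned by the authors to hg19 using TopHat2 (version 2.0 per the submitters' processing notes), and the raw HTSeq counts of 34811 genes were deposited. The annotation and strand setting of that counting are not given in the sources used here. Groups and replicate numbers came from the labels.

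The deposited counts were fitted with edgeR 4.0.16 (R 4.3.3), using TMM scaling, filterByExpr (17309 genes kept), glmQLFit and glmQLFTest with condition as the factor, and Benjamini-Hochberg adjustment over all genes kept. The standard error is the log2 fold change divided by the square root of F. The common dispersion was 0.00103 (biological coefficient of variation 3.21%), between populations of 1 clone per condition. A call is an FDR under 0.01, and the second threshold is a log2 fold change beyond 0.5, which the study used only for the colours of its figures. For changed genes its methods required a fold change above 2.5 at that FDR, with DESeq2, and no count here uses that limit. RPKM were computed from TMM-scaled counts and exon lengths of GENCODE 44 on GRCh37, merged over all transcripts of a gene. The coordinates given for genes are from the same annotation. Promoters came from RefSeq on GRCh38.p14, and no coordinates were converted.

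The members and gene lists were chosen with earlier results of these data known. Every member may be named. Counts in every library are given for members past both thresholds and for members below the filter with more than 3 counts in any library. From each wider list at most the 3 largest rises and 3 largest falls past both thresholds are named; PTGS1 is named as the targeted gene, and counts of PMEPA1 and CHRDL1 are printed in addition. HAMP was named for how it passed the filter, ACVR1 as a further type I receptor and FST for its level, all after their values were seen. Alternatives were scaling by RLE or by totals alone, no filter or a minimum of 10 counts in each library, DESeq2 1.42.0, a replicate block, and each library left out. The scripts were tested on simulated data.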

Additional observations from a re-analysis of the deposited data

How the results depend on the processing

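The counts of members higher and lower stayed within 1.5 times of those given under every alternative, and so did those over all genes. With single libraries left out, 7 to 12 members were higher and 14 to 16 lower, and past the second threshold 4 were higher and 10 to 12 lower. The median log2 fold change of the members was -0.15 with total count scaling, -0.10 without the filter on low counts, and between -0.11 and -0.06 with 1 library left out. Of the members' fold changes under these settings, 386 values kept their direction and side of the threshold, 20 lost a call and 8 gained one. SMAD4 changed sign near 0, to 0.016 without the filter, 0.013 without OV3/SCR replicate 2 and 0.014 without OV3/COX1KD replicate 2, as did TGFB3, to 0.00069 without OV3/COX1KD replicate 1. With 1 library left out SMAD4 ranged from -0.021 to 0.014 and TGFB3 from -0.14 to 0.00069, and neither was called in any setting. The cause was not tested. With a replicate block in the fit, 8 members were higher and 16 lower, the call of BMPR2 being lost (FDR = 0.0101). Deviations of same-numbered libraries correlated across genes by 0.0022, 0.044 and 0.019, so the libraries were taken to share only a number. The scarce genes BAMBI, GREM1 and BMP6 are limited by depth.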

Other observations

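The genes tested within 2 Mb of a member and with a mean log2 CPM of 1 or more were read as a description of each member's surroundings. The 19 such genes around BMP7 had log2 fold changes with a median of 0.086, 10 being above 0. Around BMPR1B, 4 of 5 genes were above 0 with a median of 0.39, on the same side as BMPR1B itself, and the part of this in its level was not tested. The medians around SMAD6 (38 genes, 0.21) and SMAD3 (32 genes, 0.22) lay on the side opposite to these genes, and those around SMAD7 (15 genes, -0.03) and SKIL (15 genes, -0.18) were smaller in size than the differences of SMAD7 and SKIL. Around BMP1 (26 genes, median -0.16, 7 above 0) and SMURF2 (26 genes, median -0.12, 9 above 0) the medians lay on the same side as the member. The part of this in their levels was not tested, and the surroundings of the other members are not given here.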
